A study of Mus musculus with 2 samples.

Results

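In single-cell RNA from mouse thymus, 60 of 3072 kept cells passed a threshold on RNA of MHC class II genes and their invariant chain. They were chosen by their own counts: a cell belonged when its raw unique molecular identifiers (UMIs, each marking 1 captured RNA molecule) of Cd74, H2-Aa and H2-Eb1 summed to at least 10. There were 51 such cells among 1731 kept cells of the mutant library and 9 among 1341 kept cells of the wild type library. They were split by Cd79a, a chain of the B cell receptor complex: 45 had at least 1 Cd79a UMI (40 mutant and 5 wild type cells), and 15 had none (11 mutant and 4 wild type cells). They are called class II-high cells here, with or without Cd79a, and are set against the 3012 other kept cells. The name stands for the rule: 2 of the 9 wild type cells passed it through Cd74 alone, with no UMI of H2-Aa or H2-Eb1.

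MHC class II molecules show peptides from taken-up or own proteins to CD4 T cells, and in the thymus this display takes part in positive selection, deletion of self-reactive thymocytes and the making of regulatory T cells. Besides epithelial cells, the thymus holds B cells, dendritic cells and macrophages, a small minority among T cell precursors, and each can present antigen there. Thymic B cells are known for high class II and, when licensed through CD40, for expressing Aire, a regulator that turns on tissue-restricted genes.

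The mutant library came from thymocytes homozygous for mutations of both GATA sites, GS1+2, of NMe, a distant enhancer of Myc that NOTCH1 uses in T cell precursors. The other library came from wild type thymocytes. Strain, age and number of animals were not given in the labels, which call the cells of both libraries thymocytes and name no sort for B cells or myeloid cells. There was 1 library per genotype and so no replicate: no test between genotypes exists, cells of a library are not replicates, and the 95% intervals given here reflect the error of counting alone.

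The mutant library held 1737 barcodes and 6364506 UMIs, and the wild type library 1346 barcodes and 6638880 UMIs. The median was 2596 UMIs per barcode in mutant and 3323.5 in wild type, and the lowest barcode had 1416 UMIs in mutant and 1781 in wild type. A cell was kept when 400 or more genes were detected in it and mitochondrial RNA took no more than 10% of its UMIs. The libraries shared 1 barcode, which was no class II-high cell. Myc, the gene that NMe serves, had 141 UMIs, or 23.0 UMIs per 1000000 UMIs (CPM), in the other kept cells of mutant and 299 UMIs, or 45.5 CPM, in those of wild type.

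The class II genes that chose these cells lie close together, apart from Cd74, the invariant chain. In the GENCODE M21 annotation of GRCm38 (mm10), H2-Aa spans chr17:34282744-34287823 on the minus strand and H2-Eb1 spans chr17:34305867-34316674 on the plus strand. Cd79a lies at chr7:24897381-24902197 and Ebf1, which encodes a transcription factor that B cell precursors need, at chr11:44617317-45008091. Class II promoters are known for a shared order of elements, an X box followed by a Y box, which recruit the coactivator CIITA. The stretches below, each 67 bases long, upstream of the start of transcription and written 5′ to 3′ along the gene's strand, show the letters of these elements in RefSeq promoters of GRCm38.p6. They are shown because each of these genes was at least 4-fold higher in mutant class II-high cells than in the mutant other kept cells. H2-Aa and H2-Eb1 are part of the rule. They were not all high in the same cells: in mutant, H2-DMb2 had 0 UMIs in the cells without Cd79a. Capitals mark the Y box letters TGATTGG and, where found before it, the X box letters AACNNATG.
H2-Aa: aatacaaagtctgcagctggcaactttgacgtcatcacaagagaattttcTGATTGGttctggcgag
H2-Eb1: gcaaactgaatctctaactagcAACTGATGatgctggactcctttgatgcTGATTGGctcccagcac
H2-DMb1: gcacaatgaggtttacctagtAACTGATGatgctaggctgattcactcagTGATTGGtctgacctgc
H2-DMb2: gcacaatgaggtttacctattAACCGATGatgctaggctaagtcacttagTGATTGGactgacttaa
H2-Ob: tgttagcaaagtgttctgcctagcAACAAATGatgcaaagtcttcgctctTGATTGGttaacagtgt

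The stretches lie at chr17:34287857-34287923 for H2-Aa, chr17:34305756-34305822 for H2-Eb1, chr17:34153078-34153144 for H2-DMb1, chr17:34145107-34145173 for H2-DMb2 and chr17:34238796-34238862 for H2-Ob. Of the 11 genes in the list of class II chains, 8 had a promoter in the table, and 7 of these held the Y letters on either strand within 250 bases before the start. In 5 of the 8 the X letters came 15 to 40 bases before them. Over all 32851 promoters of the same length, 7.23% held the Y letters on either strand, 7.71% the X letters and 0.0487% both at that spacing. H2-Aa and H2-Oa had the Y letters without the X letters at that spacing, and H2-DMa had no Y letters. Of 10 B cell receptor and coreceptor genes with a promoter, 2 held the Y letters and 0 held both. A match of letters is a description and not a site shown to be used.

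The 3-gene sum set the cells apart from most others, with few near the threshold. In mutant 1545 kept cells had no UMI of the 3 genes, 105 had 1, 22 had 2 to 4 and 8 had 5 to 9, while 46 had 20 or more. In wild type 1270 had none, 48 had 1, 10 had 2 to 4 and 4 had 5 to 9, while 7 had 20 or more. The cells just inside had sums of 12 and 13 in mutant and 12 and 17 in wild type, and those just outside had 9 and 9 in mutant and 9 and 8 in wild type. The median sum of the class II-high cells was 53 in mutant and 59 in wild type, and the highest was 148 in mutant and 481 in wild type. Their median depth was 2537 UMIs in mutant, against 2596.5 for the other kept cells, and 3532 UMIs in wild type, against 3328.

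**Figure D1:**
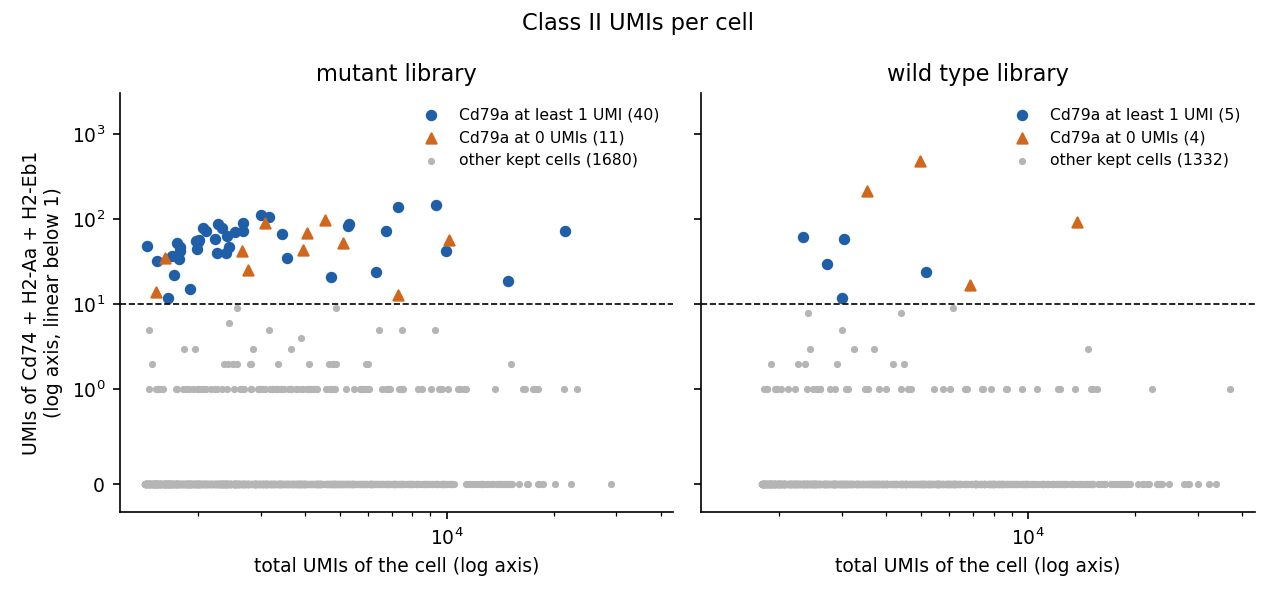
Summed UMIs of Cd74, H2-Aa and H2-Eb1 in each kept cell (y axis, logarithmic and linear below 1) against the cell's total UMIs (x axis, logarithmic), in the mutant library at the left and the wild type library at the right. Points above the dashed line at 10 UMIs are the 51 mutant and 9 wild type class II-high cells, in blue with Cd79a and in orange without, and they lie within the range of depth of the other kept cells in grey.

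Class II-high cells made up a larger share of the mutant library. They were 2.95% of kept cells in mutant (51 of 1731, exact interval 2.20 to 3.86%) and 0.671% in wild type (9 of 1341, 0.307 to 1.27%), a difference of 2.28 percentage points (Newcombe interval 1.35 to 3.24). Cells with Cd79a were 2.31% in mutant and 0.373% in wild type, and held most of that difference, 1.94 points (1.15 to 2.79). Cells without Cd79a were 0.635% in mutant and 0.298% in wild type, and the interval of their difference of 0.337 points ran across 0 (-0.207 to 0.868). The difference for all class II-high cells was 2.31 points with the same lower limit of UMIs in both libraries, and 1.76 points without cells that had at least 5 UMIs of T cell markers. A change in these cells and a change in the number of thymocytes around them cannot be told apart from shares, and neither can genotype and library.

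**Figure D2:**
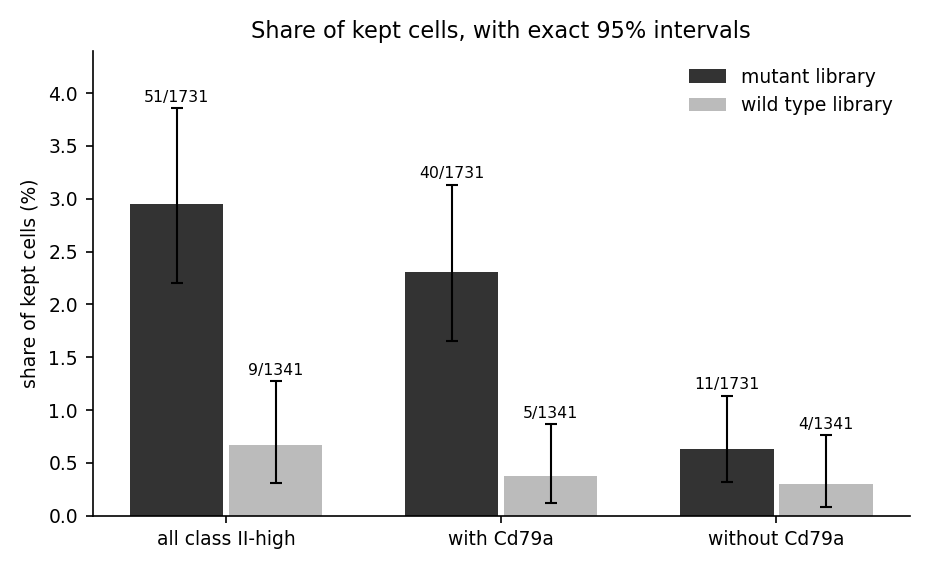
Share of kept cells (y axis, percent) that were class II-high, in all and split by Cd79a, with the mutant library in dark bars left of the wild type library in light bars and exact 95% intervals. All class II-high cells took 2.95% of kept cells in mutant and 0.671% in wild type, and the intervals of the cells without Cd79a overlap.

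Cd79a was rare outside the class II-high cells. A Cd79a UMI was found in 78.4% of class II-high cells in mutant (exact interval 64.7 to 88.7%) and in 55.6% in wild type (21.2 to 86.3%). Among the other kept cells the share was 0.774% in mutant (13 of 1680) and 0.300% in wild type (4 of 1332), at the similar depths given above. Each cell was also thinned to 1500 UMIs, which left out 1 mutant cell with Cd79a and 96 mutant other kept cells that were shallower. Then 0.253% of the other kept cells in mutant and 0.150% in wild type showed a Cd79a UMI. Of the mutant cells with Cd79a 79.5% still showed one, as did all 5 wild type cells, but these were picked for having one. With the rule applied to the thinned counts, 77.3% of class II-high cells in mutant and 50% in wild type had a Cd79a UMI. At least 1 UMI of the 3 genes of the rule was found in 8.04% of other kept cells in mutant and 4.65% in wild type, a share that the rule itself keeps low.

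Most mutant cells with Cd79a carried a wider set of B cell genes. Of the 16 listed B cell markers 13 were among the gene symbols, and Cd79a, which made the split, is 1 of them, so the cells were read on the other 12. These gave at least 10 UMIs in 27 of the 40 mutant cells with Cd79a and at least 5 UMIs in 37, with a median of 12. They gave at least 10 UMIs in 0 of the 11 mutant cells without Cd79a and in 0 of the 1680 other kept cells. In wild type 3 of the 5 cells with Cd79a had at least 5 UMIs, of which 1 had at least 10, with 11 UMIs. Among the 1332 other kept cells of wild type 2 had at least 5, of which 1 had at least 10, with 13 UMIs. With Cd79a counted, 33 of 40 mutant and 3 of 5 wild type cells with Cd79a reached 10 UMIs, but each of those 3 had 10 UMIs of Cd79a alone.

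The remaining 2 wild type cells with Cd79a carried plasma cell genes. Jchain, the joining chain of secreted IgM and IgA, had 303 UMIs in one of them and 525 in the other, in cells of 2996 and 5183 UMIs. Slpi, a secreted protease inhibitor, had 111 and 227 UMIs in the same cells, and Xbp1, the transcription factor of the secretory program, had 10 and 33. Both passed the class II threshold through Cd74 alone, with 12 and 24 UMIs, had no UMI of H2-Aa, H2-Eb1 or Ebf1, and had 3 and 6 UMIs of Cd79a. No mutant class II-high cell had a Jchain or Slpi UMI, and the other kept cells had 1 Jchain UMI in mutant and 16 in wild type. Prdm1 and Tnfrsf17, a regulator and a receptor of plasma cells, were at 0 in all class II-high cells.

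**Figure D3:**
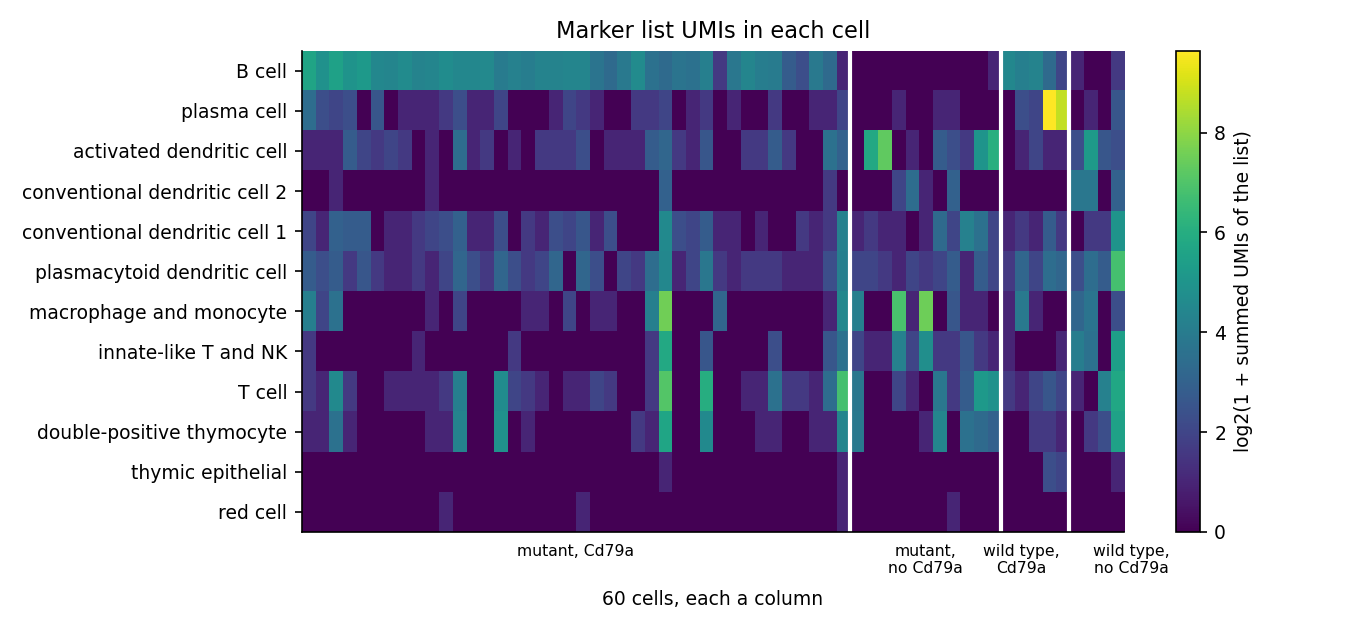
UMIs of 12 marker lists (rows, colour as log2 of 1 plus the summed UMIs) in each of the 60 class II-high cells (columns), ordered from mutant cells with Cd79a to wild type cells without. The B cell row, which counts Cd79a, reaches 10 UMIs in 33 of 40 mutant cells with Cd79a and in none of the 11 without, the plasma cell row is bright in 2 wild type cells, and the T cell row is bright in scattered cells of every set but the wild type cells with Cd79a, where it is at most 5 UMIs.

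The 11 mutant cells without Cd79a were a mixture. In 4 of them the list of activated dendritic cell markers reached 31, 56, 66 and 156 UMIs. The largest of these counts came from Ccl5, a chemokine for T cells, with 127 UMIs in 1 cell, and the cells with 56 and 66 also had 10 and 22 UMIs of Fscn1, an actin-bundling protein of mature dendritic cells. The cell with 31 had no Fscn1 UMI, 25 of its 31 were Ccl5, and it had 36 UMIs of T cell markers, while the cell with 66 had 28. In 2 other cells the macrophage and monocyte list reached 117 and 184 UMIs, of which Lyz2, encoding lysozyme, gave 87 and 157 and Apoe, encoding a lipid carrier, 27 and 25. In 1 more it reached 17, with 5 UMIs of the complement gene C1qa, and also had 13 UMIs of T cell markers in a total of 1525. Cd209a and Mgl2, lectins of type 2 conventional dendritic cells, had 4 and 5 UMIs in 1 cell and 4 and 2 in another, and these had the highest class II sums of the 11, 90 and 98. The last 2 cells had 9 and 18 UMIs of the type 1 conventional dendritic cell list, beside 13 and 6 UMIs of T cell markers and 20 and 11 of double-positive thymocyte markers. Xcr1 and Clec9a, the defining genes of that dendritic cell list, were at 0 in all 60 cells.

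The 4 wild type cells without Cd79a were no more alike. The cells with sums of 212 and 481, the highest of all 60, each had 6 UMIs of Cd209a and 5 of Mgl2, and the second also had 12 of Fscn1. One cell of 13767 UMIs had 109 UMIs of the plasmacytoid dendritic cell list, among them 28 of Cox6a2 and 4 of Siglech, a receptor of these cells, together with 53 UMIs of T cell markers and 11 of Rag1. The fourth had a sum of 17 and 18 UMIs of T cell markers. Lyz2 had 8 and 7 UMIs in the cells with Cd209a, and none of the 4 had a UMI of C1qa.

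T cell RNA was present in part of the class II-high cells. At least 5 UMIs of 12 T cell markers such as Cd3e, a chain of the T cell receptor complex, were found in 13 of 51 class II-high cells in mutant and in 3 of 9 in wild type, against 99.3% and 99.2% of the other kept cells. The median was 1 T cell marker UMI per class II-high cell in mutant and 3 in wild type, against 24 in other kept cells of either library. The mutant class II-high cells with at least 5 were deeper, with a median of 6772 UMIs against 2269.5 for the rest. The deepest, at 21468 UMIs, had 4 Cd79a UMIs, 131 of T cell markers and 188 of the macrophage list. Scrublet, a doublet caller, called none of the 60, although 5 of the 51 mutant cells and 0 of the 9 wild type cells were in the highest 5% of scores of their library.

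Across the transcriptome, class II and B cell genes led the mutant class II-high cells. Of 6084 genes with at least 20 CPM on 1 side and 20 UMIs in all, 165 (2.71%) were at least 4-fold higher than in the other kept cells, on a scale with 5 CPM added to both sides. In wild type it was 287 of 6885 genes (4.17%), and 609 of 6052 without the 3 cells that had at least 5 T cell marker UMIs. All 10 class II chain genes that passed this filter in mutant, of 11, and 6 of 7 in wild type were at least 4-fold higher, with list medians of 5.68 and 7.59 on the log2 scale, beside -0.27 and 0.01 for all genes. The 3 genes of the rule are among them and their values are a description.

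Summed over each set, the antigen-presenting chains themselves were high with and without Cd79a, though Cd74 is part of the rule. Cd74, which guides class II through the cell, had 9908 CPM in mutant and 8729 CPM in wild type cells with Cd79a, 5460 CPM in mutant and 17670.3 CPM in wild type cells without, and 23.5 CPM in mutant and 12.2 CPM in wild type other kept cells. H2-Ab1, the beta chain of I-A and no part of the rule, had 2114 CPM in mutant (interval 1894 to 2354) and 1721 CPM in wild type (1144 to 2488) cells with Cd79a. In cells without Cd79a it had 1392 CPM in mutant and 5078 CPM in wild type. In the other kept cells H2-Ab1 had 11.6 CPM in mutant and 15.2 CPM in wild type. All 40 mutant cells with Cd79a and 7 of the 11 without had an H2-Ab1 UMI, against 3.93% of the other kept cells in mutant. The 4 with no H2-Ab1 UMI were those with 31, 56, 66 and 156 UMIs of the activated dendritic cell list. In the same order these had 6, 10, 15 and 16 UMIs of H2-Aa, a gene of the rule.

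**Figure D4:**
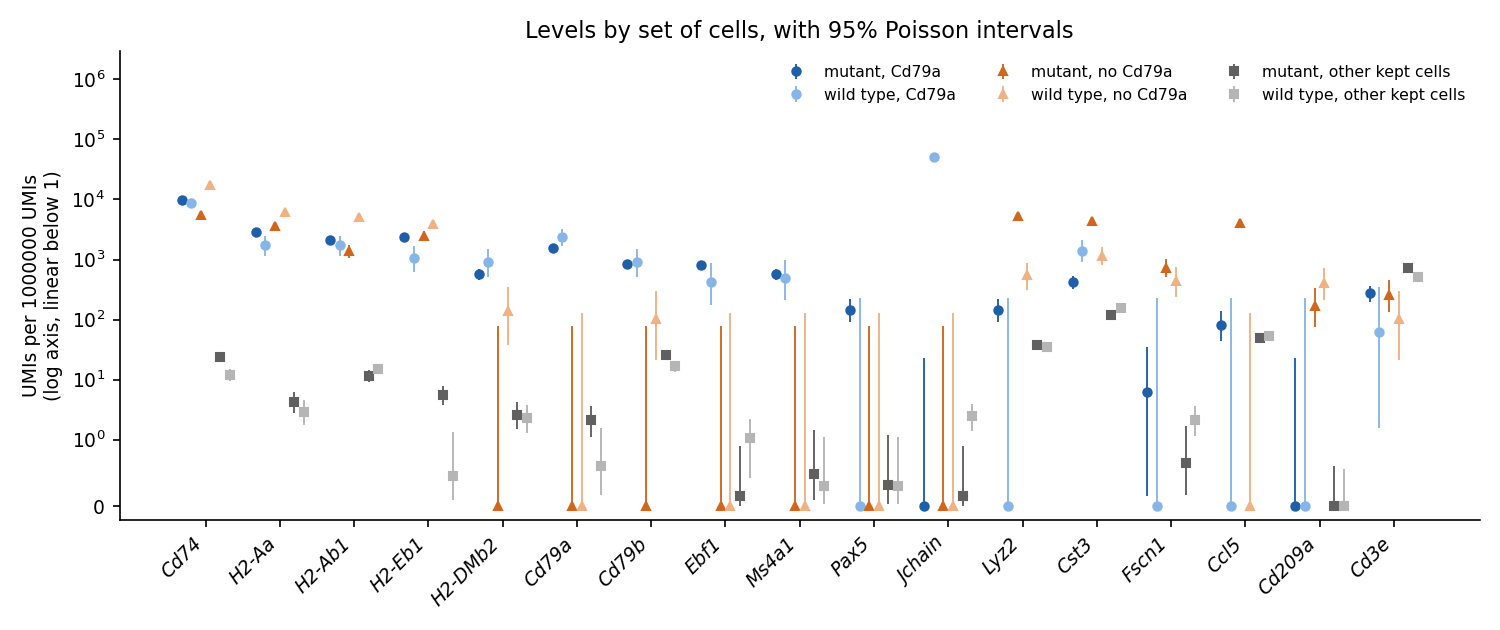
Level of 17 genes (y axis, UMIs per 1000000 UMIs, logarithmic and linear below 1) in 6 sets of cells, each pair with the mutant library left of wild type, with exact 95% Poisson intervals. Cd74, H2-Aa, H2-Ab1 and H2-Eb1 are high in all 4 class II-high sets, H2-DMb2, Cd79b, Ebf1 and Ms4a1 mainly in those with Cd79a, and Jchain in wild type cells with Cd79a alone.

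The class II list had no single direction by Cd79a in mutant: 6 of 10 measured genes lay above 0 and 4 below, with a median of 0.42. Among the 10 are the 3 genes of the rule, by whose sum both sets were picked, so their values are a description. At least 4-fold higher with Cd79a were 3 genes, and 0 were lower by that margin. The genes higher by that margin were among the chaperones that edit class II peptides. H2-DMa, the alpha chain of the peptide exchanger H2-DM, had 348 CPM with Cd79a and 407 CPM without, a log2 ratio of -0.22 whose interval ran across 0. H2-DMb2, a beta chain of H2-DM, had 91 UMIs, or 576 CPM, in mutant cells with Cd79a and 0 UMIs in those without. There 3 UMIs would have been 64.2 CPM, and against that floor H2-DMb2 was 8.97-fold higher. H2-DMb1, the other beta chain, had 120 CPM with Cd79a and 385 CPM without, a log2 ratio of -1.68 (-2.69 to -0.67). H2-Ob and H2-Oa, which form the inhibitor H2-O of B cells, had 443 and 266 CPM with Cd79a and 21.4 and 42.8 CPM without, from only 1 and 2 UMIs. In wild type, H2-DMb2 had 922 CPM with Cd79a and 137 CPM without, and H2-DMb1 had 61.5 and 309 CPM in the same order. Reads of H2-DMb1 and H2-DMb2, closely related copies, may have been shared between them by the authors' counting. Ciita, the coactivator of these genes, had 20 UMIs in 13 mutant and 4 UMIs in 3 wild type class II-high cells, and 0 and 1 UMIs in the other kept cells.

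Genes that supply class II peptides followed. Of 9 such genes, 6 were at least 4-fold higher in class II-high cells than in other kept cells in mutant, with a list median of 2.93, and 6 of 9 in wild type, with a median of 2.96. Between the mutant class II-high cells, 7 of 8 measured genes of this list were lower with Cd79a than without and 1 was higher. The median of that ratio was -1.06, and 1 gene was at least 4-fold lower. Ctsh, a cathepsin, had 310 CPM in mutant and 246 CPM in wild type cells with Cd79a and 321 CPM in mutant and 549 CPM in wild type cells without, against 0.978 CPM in mutant and 2.89 CPM in wild type other kept cells. Ctss, the cathepsin that degrades the invariant chain in B and dendritic cells, had 399 CPM in mutant cells with Cd79a and 621 CPM in those without, against 54.6 CPM in other kept cells. Ctsd, an aspartic protease, was lower in mutant class II-high cells than in other kept cells, at a log2 ratio of -1.13 on the scale with 5 CPM added.

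B cell genes made up the second large block in mutant. Of the B cell receptor and coreceptor genes, 12 of 13 that passed the filter, of 15 listed, were at least 4-fold higher than in other kept cells, with a list median of 4.55. In wild type 3 of 5 were, with a median of 3.17. Ms4a1, encoding CD20, had 90 UMIs in 30 of the 51 mutant cells and 3 UMIs in the 1680 others, and 8 UMIs in 3 of the 9 wild type cells and 2 UMIs in the 1332 others. Siglecg, an inhibitory receptor, had 57 UMIs in 27 mutant class II-high cells and 0 UMIs in the mutant others, 569-fold higher against a floor of 3 UMIs. Fcmr, the receptor for IgM, had 66 and 2 UMIs in the same sets. Constant region genes of immunoglobulins such as Ighm were not among the gene symbols used here, so the classes of antibody were not measured.

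The transcription factors of B cells were present with these receptors. In mutant, 8 of 13 factors that passed the filter, of 14 listed, were at least 4-fold higher in class II-high cells, with a median of 3.77. Ebf1 had 128 UMIs in 36 of the 40 mutant cells with Cd79a and 7 UMIs in 2 of the 5 wild type cells with Cd79a, 0 UMIs in cells without Cd79a of either library, and 1 and 7 UMIs in other kept cells of mutant and wild type. Pax5, the factor that commits cells to the B lineage, had 23 UMIs in 16 mutant cells with Cd79a and 0 UMIs in wild type ones, where the depth allows up to 184 CPM. Mef2c, a factor of lymphoid and myeloid cells, had 563 CPM in mutant and 492 CPM in wild type cells with Cd79a, 64.2 CPM in mutant and 68.6 CPM in wild type cells without. Spi1, encoding PU.1 of B and myeloid cells, had 31.7 CPM with Cd79a and 171 CPM without in mutant. Foxp1, Bach2, Ikzf3 and Tcf3, which T cells express as well, differed from the other kept cells by less than 1 on the log2 scale in mutant.

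Within the mutant library, 89 of 1272 genes (7.0%) were at least 4-fold higher in cells with Cd79a than in those without, and 21 (1.65%) were at least 4-fold lower. Of 11 measured B cell receptor and coreceptor genes, 9 were higher by that margin, with a list median of 5.14 beside 0.03 for all genes, and Cd79a itself is part of the split. Cd79b, the partner chain of Cd79a, had 132 UMIs in 35 of 40 cells with Cd79a and 0 without. Ebf1 and Ms4a1 had 0 UMIs without Cd79a as well, and were at least 12.6-fold and 8.87-fold higher with it. Pou2f2, encoding the octamer factor OCT2, had 69 UMIs in 26 cells, Bank1, an adaptor of B cell receptor signalling, 68 UMIs in 27 cells, Mzb1, a chaperone for immunoglobulin, 54 UMIs in 24 cells, and Hvcn1, a proton channel, 35 UMIs in 19 cells, each with 0 UMIs in the 11 cells without Cd79a.

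Genes of the cells without Cd79a came from few cells. Lyz2 had 145.6 CPM with Cd79a and 5375 CPM without, but 62.5% of the UMIs without Cd79a were from 1 cell. Ccl5 had 82.3 CPM with Cd79a and 4047 CPM without, with 67.2% from 1 cell. Cst3, encoding the cathepsin inhibitor cystatin C, was more even without Cd79a, with 4454 CPM in 11 of 11 cells and 25% of the UMIs from 1 cell. With Cd79a it had 418 CPM in 20 of 40 cells, with 53.0% of the UMIs from the deepest cell, at 21468 UMIs. The log2 ratio of Cst3 was -3.41 (-3.84 to -3.01). Tyrobp, a signalling adaptor of myeloid and NK cells, had a UMI in 8 of 40 cells with Cd79a and 10 of 11 without. Epsti1, an interferon-inducible gene, had 9 and 79 UMIs, and S100a4, a calcium-binding protein of motile cells, had 8 and 16 UMIs. The 5 measured genes of the activated dendritic cell list were all lower with Cd79a, with a median of -2.28.

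T cell genes were lower in class II-high cells, and part of what remained lay in the cells with T cell RNA. All 11 measured T cell markers were below 0 in class II-high cells against other kept cells in both libraries, with list medians of -1.78 in mutant and -1.70 in wild type. Itm2a, a membrane protein of selected thymocytes, had 14.7 CPM in mutant class II-high cells and 249 CPM in the others, a log2 ratio of -4.08 (-6.36 to -2.53). Cd5, a brake on T cell receptor signalling, had 9.77 and 110 CPM in the same sets, and Cd8a, a coreceptor chain, 88.0 and 496 CPM. Cd3e had 272 CPM in the 40 mutant cells with Cd79a. It had 12.6 CPM, from 1 UMI, in the 32 of them with fewer than 5 T cell marker UMIs. Cd3e is one of the markers by which these 32 were picked, so its low level there is set by the choice. Cd8a, which is not one of these markers, had 25.3 CPM, from 2 UMIs, in the same 32 cells.

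Genes of DNA replication and mitosis were also lower in class II-high cells. Among mutant cells with Cd79a, part of what remained lay in the cells with T cell RNA. In class II-high cells 16 of 18 were below 0 against other kept cells in mutant, with a median of -0.94 and 1 at least 4-fold lower, beside 3968 of 6084 genes below 0 and a median of -0.27 for all genes. In wild type it was 17 of 18, with a median of -2.78 and 10 at least 4-fold lower, beside 3415 of 6885 genes below 0. Top2a, a topoisomerase of dividing cells, had 30 UMIs in the 40 mutant cells with Cd79a, all from cells with at least 5 T cell marker UMIs, and 0 in the remaining 32. Hist1h2ap, a replication-dependent histone gene, had 510 UMIs in the 40 cells and 10 UMIs in the 32. Stmn1, a microtubule regulator high in dividing cells, had 104 and 6 UMIs. In wild type, 2 cells without Cd79a had fewer than 5 T cell marker UMIs. There Mki67 and Mcm5, genes of this list, each had 6 UMIs in 1 cell. Birc5, Ube2c and Cdk1, genes of mitosis, had 26, 39 and 18 UMIs in 3 or 4 of the 40 mutant cells with Cd79a, of which 23, 35 and 16 were from 1 cell for each gene.

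Licensing genes of thymic B cells were sparse at this depth. Of 17 costimulation and licensing genes, 9 passed the filter in mutant and 2 were at least 4-fold higher than in the other kept cells, Tnfrsf13c and Cd83, with a list median of 1.47, beside -0.27 for all genes. Tnfrsf13c, the receptor for the survival factor BAFF, had 31 UMIs in 20 of 40 mutant cells with Cd79a and 3 UMIs in 2 of 5 wild type ones, and none in cells without Cd79a. Cd83, a surface protein of activated B and dendritic cells, had 19 UMIs in 9 mutant cells and 1 UMI in 1 wild type cell with Cd79a. Cd40 had 8 UMIs in 7 mutant cells and 1 UMI in 1 wild type cell with Cd79a, and Cd86, a ligand of CD28, had 5 and 0 UMIs in the same sets. Cd80 and Aire were at 0 in all 60 cells, which in mutant cells with Cd79a allows up to 19.0 CPM.

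Chemokine receptors of B cells had few counts. Cxcr5 and Ccr6, homing receptors of B cells, had 7 and 9 UMIs in mutant cells with Cd79a, 0 and 1 UMIs in wild type ones, and none in cells without Cd79a. Ccr7, a receptor for homing to lymphoid tissue, had 15 UMIs in 8 mutant cells with Cd79a, 10 UMIs in 3 of those without and 583 UMIs in 323 of the other kept cells. None of 9 MHC class I and peptide loading genes measured in mutant was 4-fold apart between class II-high and other kept cells, with a list median of 0.39. In wild type 2 of 10 were at least 4-fold higher, B2m and H2-Q7, and 1 was at least 4-fold lower, with a median of 1.50. Of the 226 B2m UMIs in wild type class II-high cells, 161 were in the 5 with Cd79a, 2 of which were rich in Jchain.

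**Figure D5:**
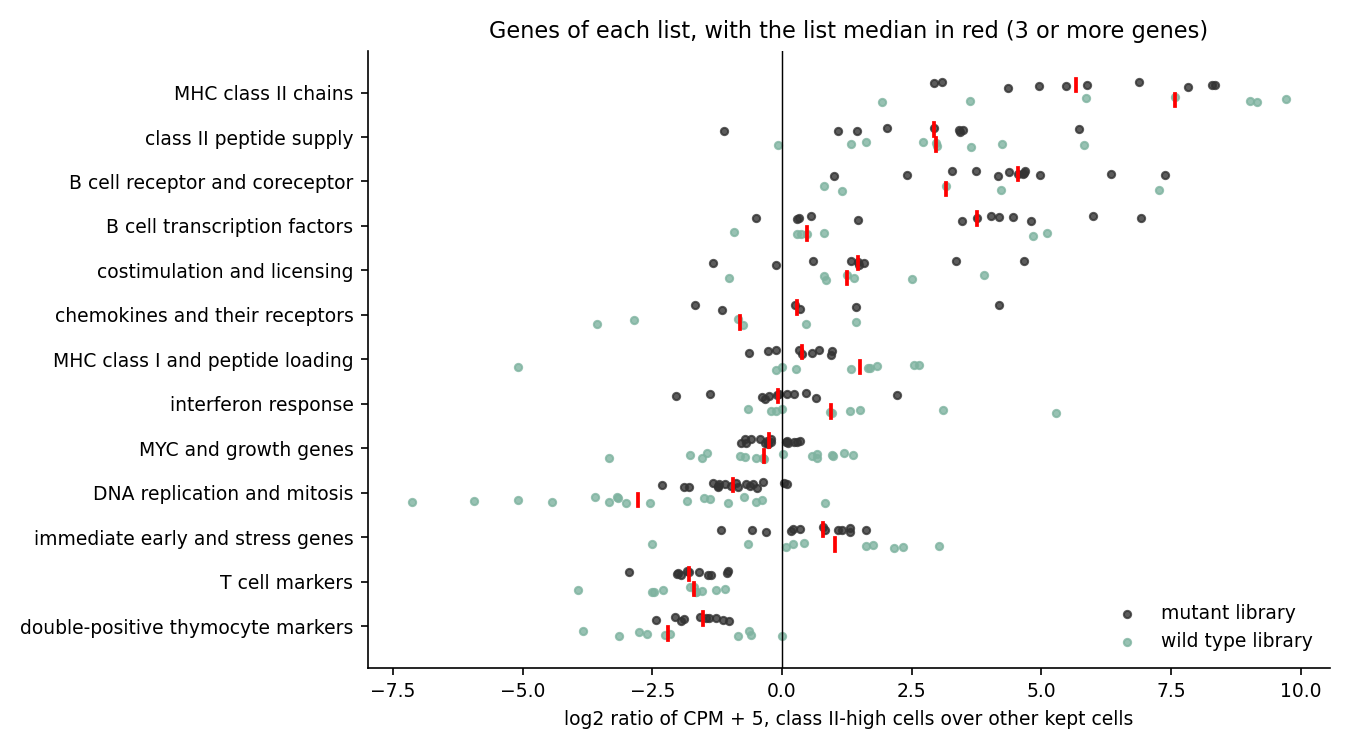
Log2 ratio of CPM with 5 added (x axis), class II-high cells over other kept cells, for each measured gene of 13 lists (rows), in the mutant library (black, upper) and the wild type library (green, lower), with the list median in red. Class II chains have medians of 5.68 in mutant and 7.59 in wild type, and T cell markers lie below 0 in both.

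Between the libraries, class II-high cells could be set side by side only as 51 mutant and 9 wild type cells of unlike makeup. Of 1597 genes measured, 73 (4.57%) were at least 4-fold higher in mutant and 15 (0.939%) at least 4-fold lower. Without the cells that had at least 5 T cell marker UMIs, 13 in mutant and 3 in wild type, only 613 genes were measured. Of these 613, 41 were higher and 10 lower. Without the 2 wild type cells with Jchain, 83 were higher and 8 lower, of a number measured that was not recorded. Class II chains had 0 of 10 in either direction, with a list median of -0.15 beside 0.18 for all genes. These chains include the 3 genes of the rule, by whose sum the cells of both libraries were picked. B cell markers had 5 of 10 higher, with a median of 2.12, and the 4 measured plasma cell markers had a median of -7.17, which came from the 2 cells with Jchain. Jchain had 0 UMIs in mutant and 828 UMIs in wild type class II-high cells.

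Among cells with Cd79a, 40 in mutant and 5 in wild type, the comparison turned on the 2 wild type cells rich in Jchain. The log2 ratio of mutant to wild type was 0.18 (-0.07 to 0.44) for Cd74, 0.72 (0.17 to 1.32) for H2-Aa, 0.30 (-0.26 to 0.91) for H2-Ab1 and 1.19 (0.49 to 1.98) for H2-Eb1. Without those 2 cells, which held no H2-Aa or H2-Eb1 UMI, it was -0.40 (-0.69 to -0.11) for Cd74, -0.29 (-0.84 to 0.32) for H2-Aa, -0.49 (-1.09 to 0.17) for H2-Ab1 and 0.18 (-0.52 to 0.97) for H2-Eb1, so the sign of the first 3 turned. Over all 45 cells, Cd79b was at -0.14 (-0.92 to 0.74), Ebf1 at 0.91 (-0.17 to 2.26) and Ms4a1 at 0.21 (-0.83 to 1.47), and without the 2 cells they were at -0.57, -0.09 and -0.80. B2m, the light chain of class I, had 2399 CPM in mutant and 9897 CPM in wild type, where 57.8% of the UMIs were from 1 cell, and 2399 and 2473 CPM without the 2 cells, a log2 ratio of -0.04 (-0.69 to 0.68). These intervals take no account of the difference between cells, and without the 2 cells 3 wild type cells remained. Nor do they take account of the choice of all these cells by Cd74, H2-Aa and H2-Eb1, whose ratios are a description.

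The genes most apart between mutant and wild type class II-high cells were of several kinds. Gimap6, a GTPase of lymphocytes, had 52 UMIs in 30 of 51 mutant cells and 0 UMIs in 9 wild type cells, 3.85-fold higher against a floor of 3 UMIs. In the other kept cells Gimap6 had 204 CPM in mutant and 99.6 CPM in wild type. Emg1, a ribosome assembly factor, had 49 and 0 UMIs. Fcmr had 66 UMIs in 24 mutant cells and 1 UMI in 1 wild type cell. Hist1h2ap had 2516 CPM in mutant and 154 CPM in wild type, with 49.9% of the mutant UMIs from 1 cell, and on the scale with 5 CPM added its log2 ratio of 3.99 became -0.31 without the cells with T cell RNA. Lef1, a factor of T cell precursors, had 44 UMIs in 9 mutant cells and 1 UMI in wild type, and 2 UMIs in the 32 mutant cells with Cd79a that had fewer than 5 T cell marker UMIs. Mgl2, at 34.2 CPM in mutant and 286 CPM in wild type, was the lowest of those ranked, from 2 and 3 cells. Ly6c2, a surface protein of monocytes and some lymphocytes, had 181 CPM in mutant, from 8 of 51 cells, and 683 CPM in wild type, from 3 of 9 cells. Of its wild type UMIs 48.4% were from 1 cell.

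Myc and interferon genes were read in few of these cells. Myc had 6 UMIs in 4 of the 51 mutant class II-high cells and 0 UMIs in the 9 wild type ones, where 3 UMIs would be 66.1 CPM, so no difference was detectable at this depth. The 6 measured MYC and growth genes had a median of 0.01 between the libraries, with 0 of 6 at least 4-fold apart. Ifi202b, an interferon-inducible gene, had 31 UMIs in 5 mutant and 0 UMIs in wild type class II-high cells, against 666 and 3 UMIs in the other kept cells. In the 32 mutant cells with Cd79a and fewer than 5 T cell marker UMIs it had 1 UMI. The 6 measured interferon response genes had a median of 0.26 between mutant and wild type class II-high cells.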

How the data were processed

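The authors deposited raw UMI counts for each gene symbol and barcode, made with Cell Ranger and the build mm10 per the submitters' processing notes, with versions not given in the sources used here. Libraries were made on a 10x Chromium instrument with 3' v2 reagents, per the labels' protocols. The members and lists were chosen with earlier results of these data known. Counts were summed over the cells of a set and scaled to CPM (Python 3.11.15, numpy 2.4.6, scipy 1.17.1, pandas 2.3.3), with exact Poisson, Clopper-Pearson, Newcombe and conditional ratio intervals. Printed log2 ratios with an interval have nothing added; calls and list medians have 5 CPM added, with genes of at least 20 CPM on 1 side and 20 UMIs on both together. A fold against 0 UMIs uses a floor of 3 UMIs over the set. The code was tested on simulated data. Scrublet (scanpy 1.11.5, expected rate 4%) called 5 mutant and 3 wild type cells, under 0.5% of cells, so doublets were not reliably found; none was removed. Genes were named by rank: 20 higher and 8 lower in class II-high against other kept cells, 12 on each side for the Cd79a split and 8 on each side between libraries, with at least 100 or 200 CPM on the higher side and limits on single cells; also the 4 highest and 2 lowest of each list. Other genes were picked from the lists, or as markers of single cells, after their values were seen. Positions came from GENCODE M21. Alternatives covered thresholds, filters, depth, doublets, T cell RNA, scaling and pseudocount. Of the ranked genes, 1 is not reported here. Leaving out cells of at least 10 Jchain UMIs, and Cd79a from the B cell markers, were chosen after seeing the data.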

Additional observations from a re-analysis of the deposited data

How the results depend on the processing

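The share of class II-high cells and the share with Cd79a stayed within their intervals under all 9 alternatives planned, and the difference of shares ran from 1.65 to 2.44 points. Counts of genes at least 4-fold apart moved most without the filter on low values, which also raised the number of genes measured. Against other kept cells 288 of 14482 genes were higher in mutant and 724 of 14249 in wild type. With the filter it was 165 of 6084 and 287 of 6885. With against without Cd79a, 1602 of 9939 were higher and 925 lower, beside 89 and 21 of 1272. In mutant against wild type, 1311 of 10387 were higher and 681 lower, beside 73 and 15 of 1597. Without the 2 wild type cells of at least 10 Jchain UMIs, an alternative chosen after seeing the data, 8 genes were lower in mutant than in wild type and the difference of shares was 2.42 points. Against other kept cells in wild type the count was 538 of 6885 with 1 CPM added. It was 609 of 6052 without cells of at least 5 T cell marker UMIs. The mean of per-cell CPM gave 52 of 1272 genes lower with Cd79a. Leaving out cells with T cell RNA gave 41 of 613 genes higher in mutant than in wild type. Of 641 recomputed list medians, 537 moved little, 97 moved by over 0.58 and 7 changed sign. Those were the type 1 dendritic cell list in mutant, 1.45, which was -0.21 without cells with T cell RNA; the innate-like T and NK list in wild type, 1.17, which was -0.35 without the filter; and the macrophage list by Cd79a, 1.26, which was -1.81 by per-cell means. The plasmacytoid list by Cd79a, 1.13, was -0.29 without the filter, -0.20 without the highest Scrublet scores and -0.35 with a sum of at least 20 UMIs. DNA replication and mitosis between libraries, 1.43, was -0.13 by per-cell means. Of 612 recomputed ratios of named genes 1 changed sign, Hist1h2ap between libraries, 3.99, which was -0.31 without cells with T cell RNA. The causes were not tested. Median-of-ratios scaling put the median of all genes at -0.07 in mutant and 0.17 in wild type class II-high against other kept cells, and at 0.03 between libraries. With 9 wild type cells, 1 cell can set a level. No paired analysis was possible because there was 1 library per genotype.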

Other observations

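Genes of antigen-presenting and plasma cells were also found outside the class II-high cells. The macrophage and monocyte list reached at least 10 UMIs in 5 of 1680 other kept cells in mutant and 4 of 1332 in wild type, with up to 157 and 144 UMIs in 1 cell. In wild type 1 other kept cell had 369 UMIs of the activated dendritic cell list, and the chemokines Ccl22 and Ccl17 had 77 and 71 UMIs in the other kept cells of wild type, 73 and 69 of them from 1 cell, against 11 and 1 UMIs in mutant. The threshold on class II UMIs therefore leaves out some cells with such genes, and the share of class II-high cells is not the share of all antigen-presenting cells.

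Some class II-related genes were read widely in the other kept cells. H2-DMa, the alpha chain of H2-DM, had 234 UMIs in 207 cells of mutant and 169 UMIs in 152 cells of wild type, and H2-Oa had 146 and 129 UMIs. Cd79b had a UMI in 8.33% of other kept cells in mutant and 7.58% in wild type, against 0.774% and 0.300% for its partner Cd79a.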
